A study of Danio rerio with 6 samples.

Results

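The genes described here handle iron in the liver or control the iron hormone hepcidin: hamp (hepcidin), its regulator atoh8, tfa (transferrin), tfr1b and tfr2 (transferrin receptors), slc40a1 (ferroportin), fth1a and fth1b (ferritin heavy chains), hjv (hemojuvelin) and bmp6. They were chosen by name with values of the comparison made here already known, among them that atoh8 differs, so their differences are given as a description and without a test. A gene was taken where its symbol equals a name on that list, or equals its all-capital form without the paralog letter. This found 8 of the 10 names, as 8 of 25640 genes in the table, and all 8 passed the filter on low counts that left 24674 genes. The entry FTH1 (ENSDARG00000007975) stands for fth1b under that rule, although the name table does not say which paralog it is. Hepcidin itself and tfr2 were not analysed here, since neither of their Ensembl IDs matched a row.

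Polyadenylated RNA was sequenced from livers of adult zebrafish of the transgenic line labelled lf:Yap (3 libraries) and of adult WT fish (3 libraries). The line's name refers to Yap, the growth-promoting coactivator restrained by the Hippo pathway, and the series title asks how Yap changes glutamine use and nucleotide synthesis. The labels give neither the promoter nor the form of the transgene, nor the sex or strain of the fish, nor whether a library is 1 animal or a pool. The p-values below therefore rest on the spread between these libraries, pooled in part over genes. That spread may be partly technical.

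In vertebrates the liver senses iron and answers with hepcidin, a small secreted hormone that removes the exporter ferroportin from cell surfaces and so lowers iron release into the blood. In mammals hepcidin is driven mainly by BMP ligands, made largely by liver sinusoidal endothelial cells, that act on hepatocytes through hemojuvelin, BMP receptors and Smad proteins. Inflammatory cytokines add a second input through Stat3. Transferrin carries iron in plasma, transferrin receptors bring it into cells, and ferritin stores it.

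The lf:Yap libraries held 76038709 to 85208212 gene counts and the WT libraries 71581315 to 87543545. Levels are given in CPM (read counts scaled to a common library size with TMM normalization factors). For genes of low level, counting error is not always small against the spread between libraries. YAP1 (ENSDARG00000068401) stood at 442.8, 386.2 and 291.4 CPM in lf:Yap livers, against 22.6, 27.4 and 20.4 CPM in WT livers, so it was higher in every lf:Yap library. The hepatocyte marker genes were abundant in every library: the 13 matched summed to 141341 to 153863 CPM in lf:Yap and 108304 to 129245 CPM in WT. Pancreas markers (14 genes, digestive enzymes and 3 islet hormones) varied widely between libraries, from 252.3 to 17417 CPM in lf:Yap and from 742.9 to 15998 CPM in WT. Intestine markers (7 genes) also varied, at 158.5, 2.96 and 5.81 CPM in lf:Yap livers, against 44.7, 80.7 and 24.3 CPM in WT livers. Erythrocyte markers (10 genes) summed to 96.5 to 183.1 CPM in lf:Yap and 96.4 to 183.2 CPM in WT.

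Among the iron genes atoh8 differed most and tfa next, while the receptor, exporter, ferritin, hemojuvelin and BMP6 genes had lf:Yap and WT values that overlapped. Of the 8 genes, 1 (atoh8) was among those called higher and 0 among those called lower by edgeR's quasi-likelihood test with Benjamini-Hochberg adjustment at 0.05 over all genes, where 0.555% of tested genes were called higher and 0.109% lower. The lf:Yap values lay wholly above the WT values for 2 of the 8, atoh8 and tfa, against 8.84% of all tested genes, and wholly below for 0 of the 8, against 8.78%; either way it was 2 of the 8, against 17.6%. The median log2 fold change of lf:Yap over WT was 0.03 over the 8 genes and -0.03 over all tested genes.

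atoh8 (ENSDARG00000037555) encodes a basic helix-loop-helix transcription factor; in mammals it is a BMP-Smad target that raises hepcidin transcription. It stood at 36.7, 19.5 and 42.4 CPM in lf:Yap livers, against 1.92, 2.22 and 5.03 CPM in WT livers. The lowest lf:Yap library lay well above the highest WT library; lf:Yap replicate 2 was the lowest of its group and WT replicate 3 the highest of its own. These levels rest on 1419 to 3060 reads per lf:Yap library and 152 to 434 per WT library. The log2 fold change was 3.43 ± 0.49 (SE), or 10.8-fold, which is larger in size than that of 99.4% of tested genes. Leaving out 1 library at a time gave 3.20 to 3.97, the highest without WT replicate 3, and atoh8 was among the called genes in 0 of these 6 fits.

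tfa (ENSDARG00000016771) encodes transferrin, the iron carrier that hepatocytes secrete into plasma. It stood at 41069.8, 29867.5 and 41423 CPM in lf:Yap livers, against 20321, 22525 and 24216 CPM in WT livers. Replicate 2 was the lowest lf:Yap library and still lay above the highest WT library. In read share, which is not corrected for gene length, tfa took 3.96%, 2.85% and 3.89% of the counts in lf:Yap livers, against 2.25%, 2.31% and 2.47% in WT livers. It drew more reads than any other gene in all 3 lf:Yap libraries and ranked 2, 3 and 2 in WT replicates 1, 2 and 3. The log2 fold change was 0.74 ± 0.18 (SE), or 1.68-fold, and 0.67 to 0.89 with 1 library left out. The other 12 hepatocyte markers summed to 100271, 113862 and 112440 CPM in lf:Yap livers, against 90561, 106720 and 84089 CPM in WT livers, and these sums overlapped between the groups. Over these 12 genes the log2 fold change had a median of 0.09 and was above 0 for 8 and below for 4. Taken singly, 3 of the 12 lay higher without overlap, as tfa did: fabp10a (ENSDARG00000038439), a fatty acid binding protein, apoa2 (ENSDARG00000015866), an apolipoprotein, and HNF4A (ENSDARG00000021494), a hepatocyte transcription factor. Their log2 fold changes were 0.59 ± 0.17 for fabp10a, 0.51 ± 0.21 for apoa2 and 0.92 ± 0.21 for HNF4A (SE), the last above that of tfa. FGB (ENSDARG00000008969), a fibrinogen chain, lay lower without overlap, at -0.34 ± 0.15 (SE), and the groups of the other 8 overlapped. Over all tested genes 8.84% lay higher without overlap and 8.78% lower. These markers' part in the difference of tfa was not tested. Ceruloplasmin (CP, ENSDARG00000010312), the copper-dependent ferroxidase that the liver also secretes, averaged 5711 ± 897.6 CPM in lf:Yap and 5781 ± 616.2 CPM in WT (SD, n = 3 each), a log2 fold change of -0.02 ± 0.18 (SE).

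**Figure D1:**
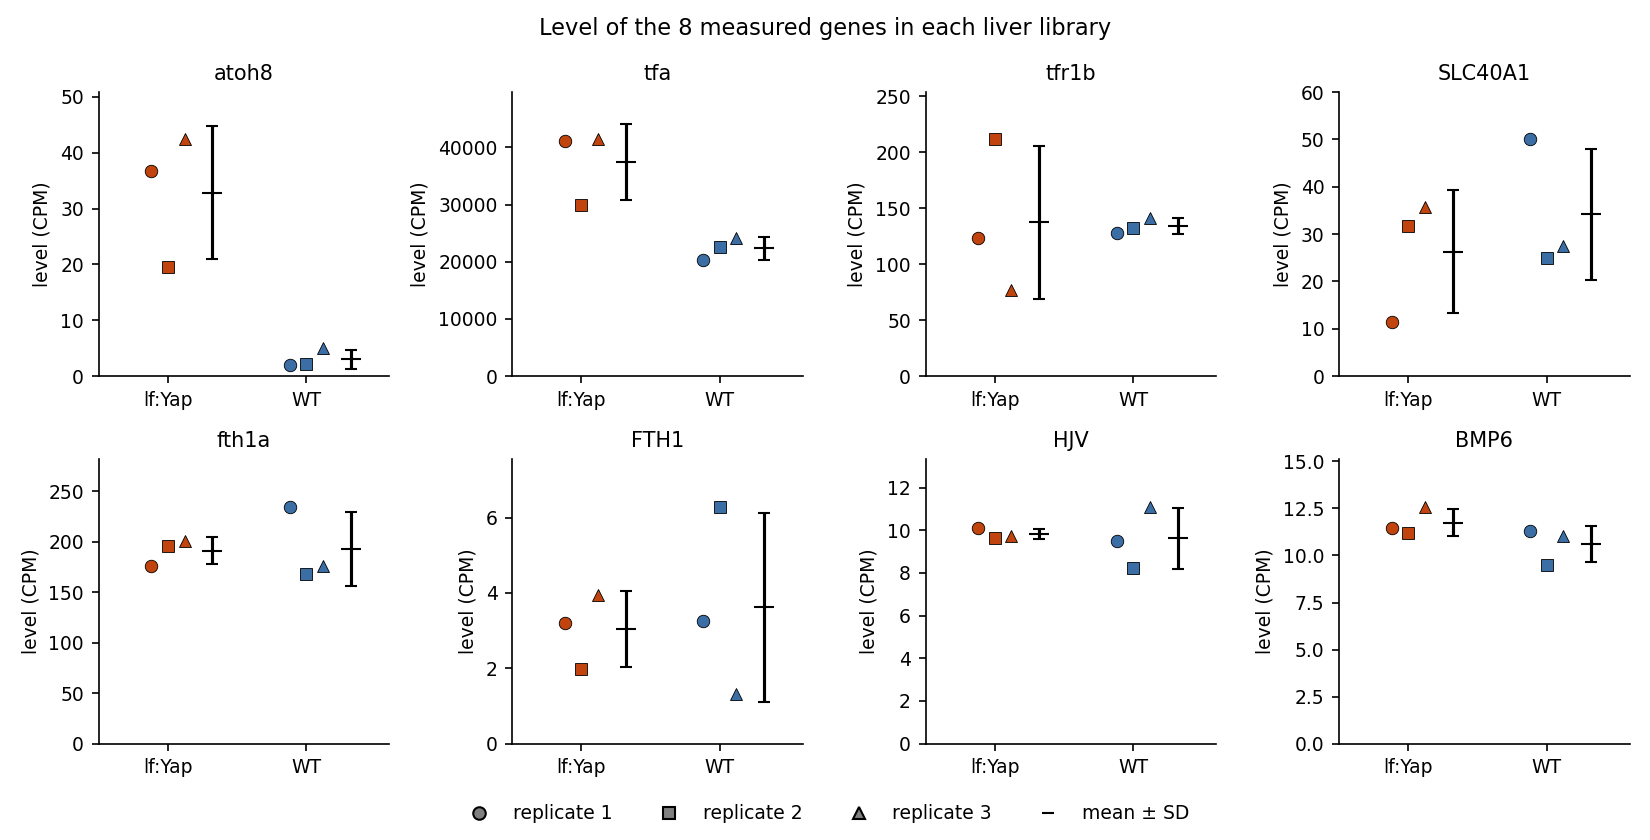
Level in CPM (vertical axes from 0) of the 8 iron genes in each library, with lf:Yap in orange on the left and WT in blue on the right; symbols mark replicates and bars the mean ± SD (n = 3). For atoh8 (19.5 to 42.4 CPM in lf:Yap, 1.92 to 5.03 CPM in WT) and tfa the groups do not overlap, and for the other 6 genes they do.

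tfr1b (ENSDARG00000077372) encodes 1 of the zebrafish copies of transferrin receptor 1, which takes up iron-loaded transferrin. Its level was 123.0, 211.3 and 77.1 CPM in lf:Yap livers, against 128.2, 132.2 and 141.6 CPM in WT livers. The means were alike, but the lf:Yap libraries lay both below and above all WT libraries, with a highest value 2.74 times the lowest in lf:Yap and 1.105 times in WT. The coefficient of variation was 49.7% in lf:Yap and 5.13% in WT (n = 3 each); the difference in spread was not tested. The log2 fold change was 0.03 ± 0.35 (SE), with -0.42 when lf:Yap replicate 2 was left out and 0.32 when lf:Yap replicate 3 was left out. The summed erythrocyte markers were 96.5, 183.1 and 101.1 CPM in lf:Yap replicates 1, 2 and 3, so the library highest in tfr1b was also the highest of its group in these markers; WT replicate 1, at 183.2 CPM, had as much of them with 128.2 CPM of tfr1b. Over the 10 erythrocyte markers the log2 fold change had a median of -0.23, with 3 above 0 and 7 below. The only globin gene of that list with a row, hbaa2, lay higher without overlap. It read 3.77, 2.24 and 2.48 CPM in lf:Yap livers, against 0.24, 0.85 and 1.08 CPM in WT livers. The groups of the other 9 overlapped. The part of these markers in the tfr1b values was not tested.

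SLC40A1 (ENSDARG00000000241) encodes ferroportin, the iron exporter on which hepcidin acts, which in mammals is abundant in macrophages that recycle iron from red cells. It read 11.4, 31.7 and 35.7 CPM in lf:Yap livers, against 50.01, 25.05 and 27.5 CPM in WT livers. The lowest value of all was lf:Yap replicate 1 and the highest WT replicate 1, while the other 4 libraries lay between 25.05 and 35.7 CPM. The log2 fold change was -0.38 ± 0.46 (SE); it was -0.02 without lf:Yap replicate 1 and 0.02 without WT replicate 1. Macrophage markers other than SLC40A1 (16 rows, 6 of them carrying the symbol MFAP4) summed to 244.6, 391.4 and 493.1 CPM in lf:Yap livers, against 662.7, 455.2 and 419.7 CPM in WT livers. The library lowest in SLC40A1 was thus also the lowest in these markers, and the highest was the highest. The other 4 libraries did not keep this order, since WT replicate 2 was their lowest in SLC40A1 but not in the markers. Much of the sum in WT replicate 1 came from cd74a (252.2 CPM) and cd74b (106.6 CPM). The most abundant MFAP4 row (ENSDARG00000090557) was lowest in lf:Yap replicate 1, at 21.2 CPM. It was highest in WT replicate 2, at 110.5 CPM, against 79.1 CPM in WT replicate 1. The log2 fold changes of these 16 rows had a median of -0.37 and were above 0 for 1 and below for 15, and none of the rows was at 0 in all libraries. Their part in the SLC40A1 values was not tested, and in bulk tissue fewer cells of a type and less RNA per cell cannot be told apart.

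**Figure D2:**
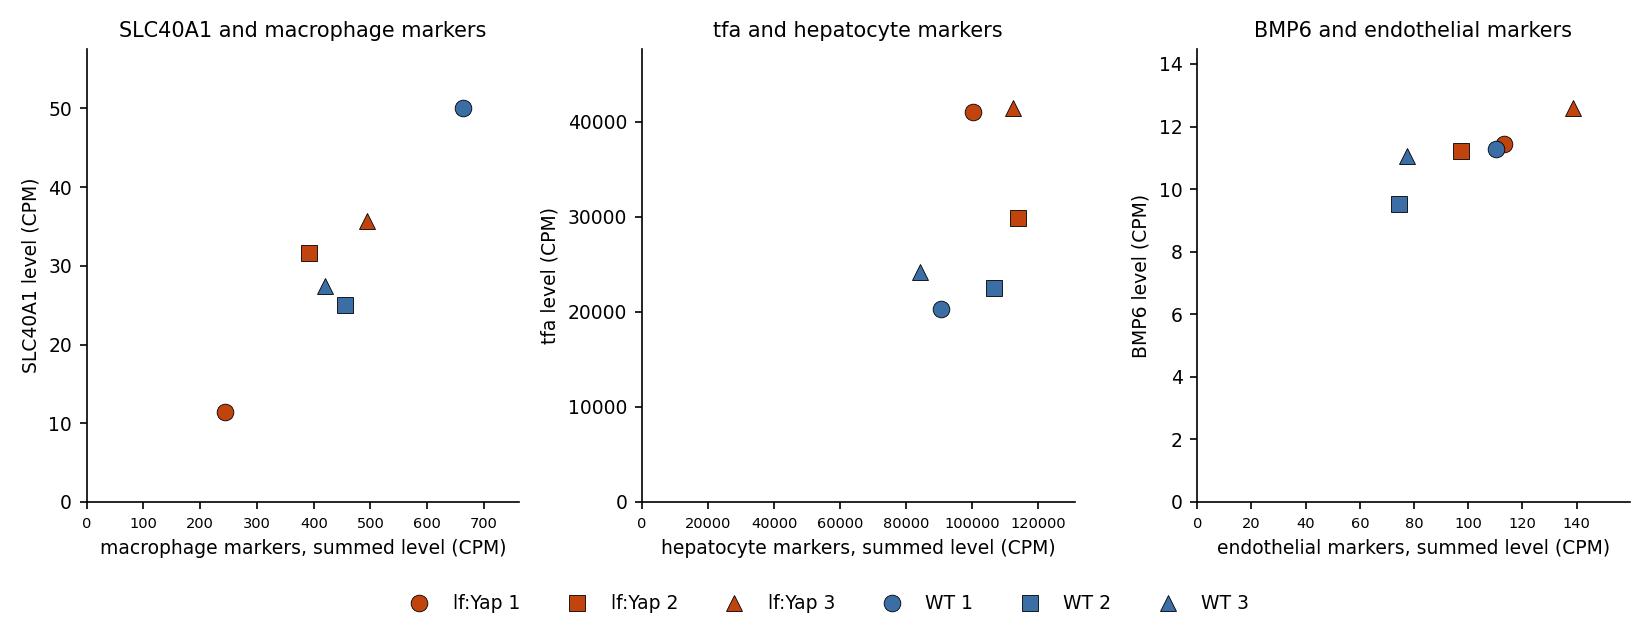
Levels of SLC40A1, tfa and BMP6 (vertical axes, CPM) against the summed level of macrophage, hepatocyte and endothelial markers (horizontal axes, CPM, the described genes left out of the sums), 1 point per library. lf:Yap replicate 1 is lowest and WT replicate 1 highest in both SLC40A1 and macrophage markers. The groups do not overlap in tfa and overlap in the summed hepatocyte markers. Of the hepatocyte markers taken singly, 3 of 12 lay higher without overlap, against 8.84% of all tested genes.

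For both ferritin heavy chain genes the lf:Yap and WT values overlapped. fth1a (ENSDARG00000015551), the subunit gene whose product oxidizes iron for storage, read 175.7, 196.2 and 200.8 CPM in lf:Yap livers, against 234.5, 168.1 and 175.5 CPM in WT livers, with a log2 fold change of -0.01 ± 0.20 (SE). WT replicate 1 was the highest library and WT replicate 2 the lowest, so the lf:Yap values lay inside the WT range. FTH1 read 3.20, 1.97 and 3.95 CPM in lf:Yap livers, against 3.26, 6.28 and 1.31 CPM in WT livers. WT replicates 2 and 3 were its highest and lowest libraries, 4.80 times apart, and again enclosed the lf:Yap values. Its log2 fold change was -0.25 ± 0.56 (SE), and 0.40 without WT replicate 2. These FTH1 values rest on 113 to 563 reads per library.

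The table also holds 4 ferritin-like genes with fthl symbols (fthl27, fthl28, fthl30 and fthl31), named after their values were seen. They summed to 182.4, 336.7 and 598.9 CPM in lf:Yap livers, against 506.6, 794.2 and 533.0 CPM in WT livers. Each of the 4 was lowest in lf:Yap replicate 1 and highest in WT replicate 2. Their log2 fold changes ran from -1.10 for fthl28 to -0.60 for fthl31. For fthl28 every lf:Yap library lay below every WT library, as for 8.78% of all tested genes. The groups of fthl27, fthl30 and fthl31 overlapped. They are related genes between which reads may be split, so each single value is uncertain.

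The hepcidin-inducing ligand and its co-receptor were nearly level between the groups. HJV (ENSDARG00000030494), the glycolipid-anchored BMP co-receptor whose loss causes juvenile iron overload in humans, read 10.1, 9.63 and 9.74 CPM in lf:Yap livers, against 9.52, 8.25 and 11.1 CPM in WT livers. Its lf:Yap libraries were the tightest set among the 8 genes, with a coefficient of variation of 2.43% in lf:Yap and 14.8% in WT. They lay inside the WT range. The lf:Yap spread is no wider than counting error would give at 699 to 829 reads per library. Its log2 fold change was 0.03 ± 0.20 (SE). BMP6 (ENSDARG00000015686), the ligand that in mice rises with liver iron, read 11.4, 11.2 and 12.6 CPM in lf:Yap livers, against 11.3, 9.51 and 11.1 CPM in WT livers, a log2 fold change of 0.15 ± 0.19 (SE). The highest BMP6 value was lf:Yap replicate 3 and the lowest WT replicate 2, which were also the highest and lowest in summed endothelial markers (12 genes). Those markers summed to 113.1, 97.5 and 138.8 CPM in lf:Yap livers, against 110.1, 74.4 and 77.6 CPM in WT livers. The log2 fold changes of the 11 tested endothelial markers had a median of 0.51, 10 above 0 and 1 below. Taken singly, cdh5, FLI1 and ERG lay higher without overlap and the groups of the other 8 overlapped. Over all tested genes 8.84% lay higher without overlap. None of the 12 markers was at 0 in all libraries, and their part in the BMP6 values was not tested.

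**Figure D3:**
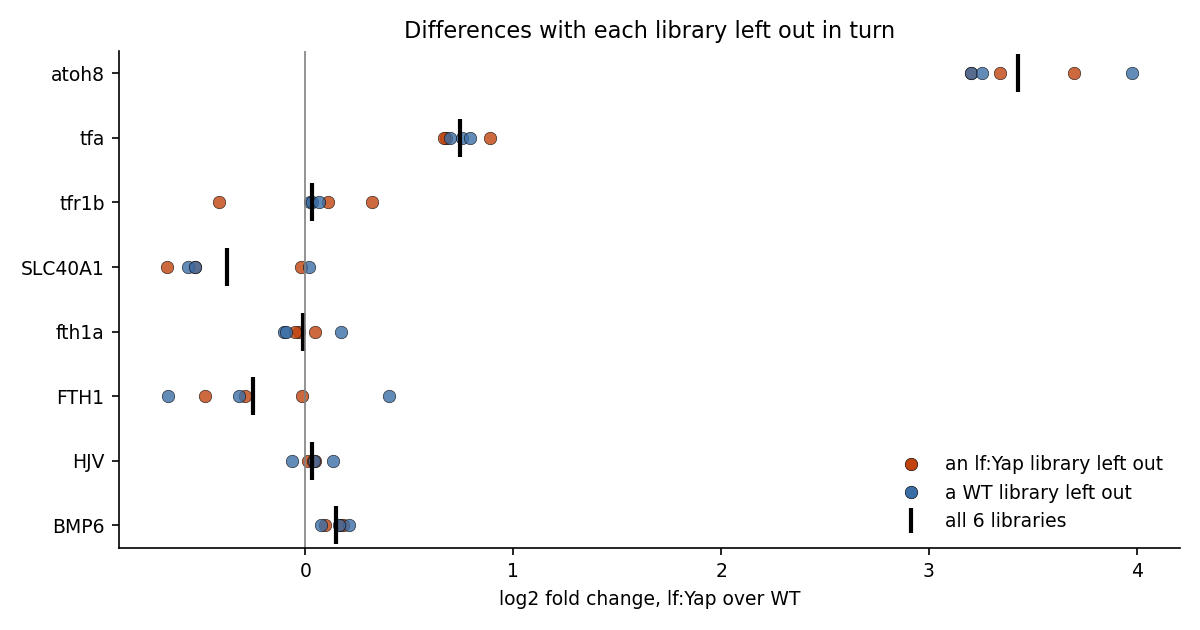
Log2 fold change (lf:Yap over WT, horizontal axis) of each iron gene with all 6 libraries (black bar) and with 1 library left out (orange dots, an lf:Yap library; blue dots, a WT library). atoh8 stays between 3.20 and 3.97 and tfa between 0.67 and 0.89, BMP6 stays above 0, and tfr1b, SLC40A1, fth1a, FTH1 and HJV lie on both sides of 0.

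Beyond these 8 genes, 7 lists of genes for hepcidin control and iron handling were used, also chosen with earlier results of these data known. They held 125 other tested genes, of which 1 rose and 0 fell (edgeR, adjusted p under 0.05 over all genes, against 0.665% of all tested genes in either direction). With no adjustment, 11 were higher and 5 lower at p under 0.05, against 6.12% and 5.2% of all tested genes. Their median log2 fold change was 0.01, with 66 above 0 and 59 below, against a median of -0.03 over all tested genes. The lf:Yap values lay wholly above the WT values for 16 of the 125 and wholly below for 8, against 8.84% and 8.78% of all tested genes.

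The gene that rose was CYBRD1 (ENSDARG00000095577), which encodes a membrane cytochrome that reduces ferric iron and is best known from the duodenum. It read 8.11, 7.74 and 9.24 CPM in lf:Yap livers, against 1.42, 1.61 and 1.89 CPM in WT livers. The groups were far apart and tight within. The rise was 5.10-fold (log2 fold change 2.35 ± 0.23, SE; adjusted p = 0.0116, edgeR). With 1 library left out the log2 fold change was 2.27 to 2.45, and the call was lost without lf:Yap replicate 1, lf:Yap replicate 3 or WT replicate 2, at adjusted p-values of 0.0531, 0.0507 and 0.0625 (edgeR), the lowest of the 6 such fits being 0.0389. In the same list of uptake and export genes, 0 of the other 15 tested genes passed, by edgeR, DESeq2 or limma-voom (FLVCR2 higher and lrp2b lower without adjustment at p under 0.05, edgeR). slc11a2 (ENSDARG00000024295), the divalent metal transporter that moves iron out of endosomes, averaged 28.2 ± 6.95 CPM in lf:Yap and 20.5 ± 9.25 CPM in WT (SD, n = 3 each). FLVCR2 (ENSDARG00000031506), a membrane transporter first studied in relation to heme, averaged 73.2 ± 23.7 CPM in lf:Yap and 40.6 ± 11.9 CPM in WT (adjusted p = 0.373, edgeR). The other FLVCR2 entry (ENSDARG00000038957) overlapped between the groups, with a log2 fold change of 0.67 ± 0.89 (SE). lrp2b (ENSDARG00000007906), a relative of the endocytic receptor megalin, had its low fold change (log2 -3.48 ± 1.44, SE) from WT replicate 2 alone, at 5.77 CPM, where the other 5 libraries read 0.116 to 0.202 CPM. Without that library the log2 fold change was 0.18. That library was also the highest WT library in summed intestine markers, at 80.7 CPM, although lf:Yap replicate 1 was higher, at 158.5 CPM. The part of these markers in the values of the uptake and export genes was not tested.

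Other known BMP-Smad targets lay on both sides of 0, where atoh8 was higher. Of 12 tested targets other than atoh8, 0 passed in either direction over all genes, and their median log2 fold change was -0.06. Without adjustment 1 was higher and 3 lower at p under 0.05 (edgeR), against 6.12% and 5.2% of all tested genes. DESeq2, which called 1066 genes in all, called 0 of them higher and 2 lower (ID1 and ID2), and limma-voom 0. The lf:Yap values lay wholly above the WT values for 1 of the 12 and wholly below for 3, against 8.84% and 8.78% of all tested genes. ID1 (ENSDARG00000040764), an inhibitor of DNA binding that in mice tracks hepcidin closely, read 9.17, 9.25 and 14.2 CPM in lf:Yap livers, against 17.7, 19.98 and 23.05 CPM in WT livers. All 3 lf:Yap libraries were below all WT libraries, for a log2 ratio of -0.90 ± 0.25 (SE; adjusted p = 0.22, edgeR). Its relatives ID2 (ENSDARG00000055283) and id2b (ENSDARG00000029544) also lay lower without overlap, at log2 fold changes of -1.18 ± 0.27 and -1.11 ± 0.34 (SE; adjusted p = 0.153 and 0.269, edgeR). ID3 (ENSDARG00000054823) lay the other way, at 40.3, 43.4 and 37.5 CPM in lf:Yap livers, against 30.1, 27.1 and 26.8 CPM in WT livers (log2 fold change 0.53 ± 0.18, SE; adjusted p = 0.313, edgeR). The feedback inhibitor SMAD7 (ENSDARG00000016858) averaged 8.20 ± 1.76 CPM in lf:Yap and 9.001 ± 0.704 CPM in WT (SD, n = 3 each). The SMAD6 genes, inhibitors of the same kind, had log2 fold changes of -0.06 ± 0.25 (ENSDARG00000031763) and 0.24 ± 0.23 (ENSDARG00000053209).

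**Figure D4:**
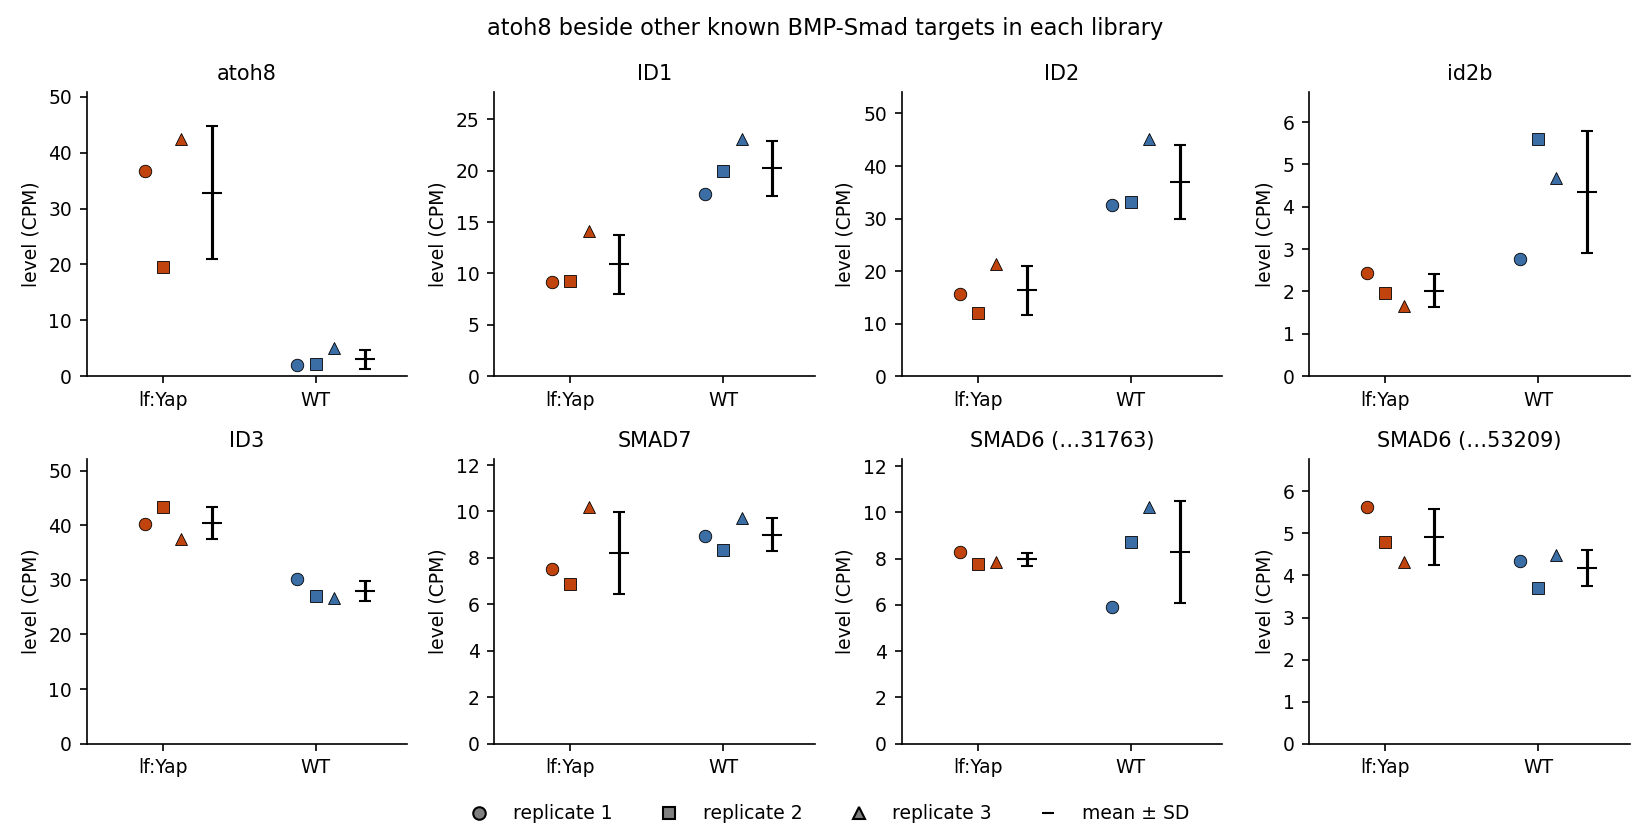
Level (CPM, vertical axes from 0) of atoh8 and of 7 other known BMP-Smad targets in each library, lf:Yap on the left and WT on the right, with the mean ± SD (n = 3). atoh8 and ID3 lie higher in lf:Yap and ID1, ID2 and id2b lower, each without overlap, while SMAD7 and both SMAD6 genes overlap.

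Upstream of these targets, none of 19 tested BMP ligand, receptor and Smad genes other than HJV and BMP6 passed in either direction (0 also without adjustment at p under 0.05 by edgeR, and 0 by DESeq2 or limma-voom), with a median log2 fold change of 0.13. BMP2 (ENSDARG00000013409), the second endothelial ligand of the mammalian hepcidin pathway, averaged 7.23 ± 0.657 CPM in lf:Yap and 5.74 ± 0.249 CPM in WT (SD, n = 3 each), without overlap (log2 fold change 0.33 ± 0.20, SE; adjusted p = 0.608, edgeR). The other BMP2 entry (ENSDARG00000041430) was low, at 0.68 CPM in lf:Yap and 0.43 CPM in WT. Its groups overlapped, with a log2 fold change of 0.66 ± 0.45 (SE). The activin type II receptor gene ACVR2A (ENSDARG00000011188) read 45.9, 17.8 and 28.8 CPM in lf:Yap livers, against 19.96, 20.2 and 16.3 CPM in WT livers, its spread coming mainly from lf:Yap replicate 1. SMAD4 (ENSDARG00000012649), the partner shared by BMP and TGF-beta Smads, had a log2 fold change of 0.45 ± 0.29 (SE). The other SMAD4 entry (ENSDARG00000075226) went the other way, with a log2 fold change of -0.35 ± 0.28 (SE). The BMP type II receptor genes, both with the symbol BMPR2, had 0.38 ± 0.52 (ENSDARG00000011941) and -0.14 ± 0.27 (ENSDARG00000020057). Among 12 tested inhibitors 0 passed (edgeR). Without adjustment 1 FURIN entry alone lay lower at p under 0.05 (edgeR), against 5.2% of all tested genes. DESeq2, which called 1066 genes in all, called that 1 gene and limma-voom 0. FURIN (ENSDARG00000070971), a proprotein convertase that in mammals releases soluble hemojuvelin, read 37.3, 35.02 and 39.5 CPM in lf:Yap livers, against 70.0, 66.7 and 54.1 CPM in WT livers. Its lf:Yap libraries lay below all WT libraries, for a log2 ratio of -0.77 ± 0.19 (SE, adjusted p = 0.173, edgeR). The more abundant FURIN entry (ENSDARG00000062909) averaged 162.9 CPM in lf:Yap and 186.6 CPM in WT. Its groups overlapped, with a log2 ratio of -0.20 ± 0.25 (SE). FSTL1 (ENSDARG00000015559), a secreted BMP antagonist, and fkbp1ab (ENSDARG00000033567), of the FKBP12 family that holds type I receptors inactive, had log2 fold changes of -0.9996 ± 0.53 and 0.53 ± 0.38 (SE). Both were low, averaging 0.25 and 2.08 CPM in lf:Yap and 0.50 and 1.44 CPM in WT. The other FSTL1 entry (ENSDARG00000039576), at 26.1 CPM in lf:Yap and 23.6 CPM in WT, had 0.14 ± 0.19 (log2, SE). Its counterpart fkbp1aa (ENSDARG00000022684), of the FKBP12 family, at 45.5 and 45.4 CPM, had 0.003 ± 0.17. The hepcidin suppressor tmprss6 was not analysed here.

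In the inflammatory arm of hepcidin control 0 of 20 tested genes passed (edgeR), with a median log2 fold change of 0.25. Without adjustment 5 were higher and 0 lower at p under 0.05 (edgeR), against 6.12% and 5.2% of all tested genes. DESeq2, which called 1066 genes in all, called 2 of the 20 higher (crp2 and crp3) and limma-voom 0. The C-reactive protein genes crp2 (ENSDARG00000056462) and crp3 (ENSDARG00000042613), of the acute phase response, lay highest by p. crp2 read 509.1, 206.2 and 301.9 CPM in lf:Yap livers, against 117.6, 86.0 and 97.0 CPM in WT livers (log2 fold change 1.76 ± 0.35, SE; adjusted p = 0.099, edgeR). crp3 read 4063, 2577 and 2290 CPM in lf:Yap livers, against 1299, 1273 and 1436 CPM in WT livers (log2 fold change 1.16 ± 0.25, SE; adjusted p = 0.124, edgeR). For both genes lf:Yap replicate 1 was highest and every lf:Yap library lay above every WT library. One SOCS3 gene (ENSDARG00000025428), a feedback inhibitor of Stat3 signalling, read 31.7, 52.8 and 47.0 CPM in lf:Yap livers, against 18.6, 5.90 and 0.648 CPM in WT livers; the WT libraries spread widely (log2 fold change 2.38 ± 0.97, SE; adjusted p = 0.418, edgeR). The other SOCS3 gene (ENSDARG00000026611) averaged 30.0 ± 4.89 CPM in lf:Yap and 30.3 ± 5.09 CPM in WT (SD, n = 3 each). STAT3 (ENSDARG00000022712), the factor that in mammals carries the interleukin-6 signal to the hepcidin promoter, had a log2 ratio of -0.53 ± 0.23 (SE; adjusted p = 0.457, edgeR). creb3l3b (ENSDARG00000090903), whose mouse relative links endoplasmic reticulum stress to hepcidin, had one of 0.58 ± 0.21 (SE; adjusted p = 0.349, edgeR). The related gene creb3l3a (ENSDARG00000056226) had 0.17 ± 0.49 (log2, SE), and its groups overlapped.

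Of 17 tested storage and sensing genes other than the ferritins, 0 passed (edgeR), with a median log2 fold change of -0.13. Without adjustment 3 were higher and 0 lower at p under 0.05 (edgeR), against 6.12% and 5.2% of all tested genes. DESeq2, which called 1066 genes in all, called 1 of them higher (ncoa4) and limma-voom 0. ncoa4 (ENSDARG00000021439), whose product in mammals delivers ferritin to lysosomes for iron release, read 292.5, 158.4 and 162.5 CPM in lf:Yap livers, against 85.6, 42.2 and 63.4 CPM in WT livers. All lf:Yap libraries lay above all WT libraries, with lf:Yap replicate 1 the highest (log2 fold change 1.68 ± 0.36, SE; adjusted p = 0.124, edgeR). The iron regulatory protein genes, which adjust ferritin and transferrin receptor output to cell iron, were IREB2 (ENSDARG00000021466) with a log2 fold change of 0.37 ± 0.22 and ACO1 (ENSDARG00000026376) with 0.18 ± 0.23 (SE). EPAS1 (ENSDARG00000008697), hypoxia-inducible factor 2-alpha, and EGLN2 (ENSDARG00000062562), an iron-dependent prolyl hydroxylase that marks such factors for degradation, had 0.65 ± 0.27 and 0.92 ± 0.31 (SE, adjusted p = 0.438 and 0.324, edgeR). Another EPAS1 entry (ENSDARG00000057671) went the other way, at -0.39 ± 0.19 (SE, adjusted p = 0.515, edgeR). Both EPAS1 entries were without overlap between the groups. Among 33 tested genes of mitochondrial iron import and iron-sulfur cluster assembly 0 passed, and 0 did without adjustment at p under 0.05 (edgeR) or by DESeq2 or limma-voom. Their log2 fold changes lay between -0.64 and 0.69 with a median of -0.05. The lowest p-values there were those of the scaffold gene ISCU (ENSDARG00000026582), at 0.69 ± 0.30, CISD2 (ENSDARG00000052703), a membrane iron-sulfur protein gene, at -0.64 ± 0.39, and the mitoferrin gene SLC25A37 (ENSDARG00000073743), at -0.38 ± 0.28 (log2, SE). The other ISCU entry (ENSDARG00000035596) had 0.12 ± 0.25 (log2, SE).

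**Figure D5:**
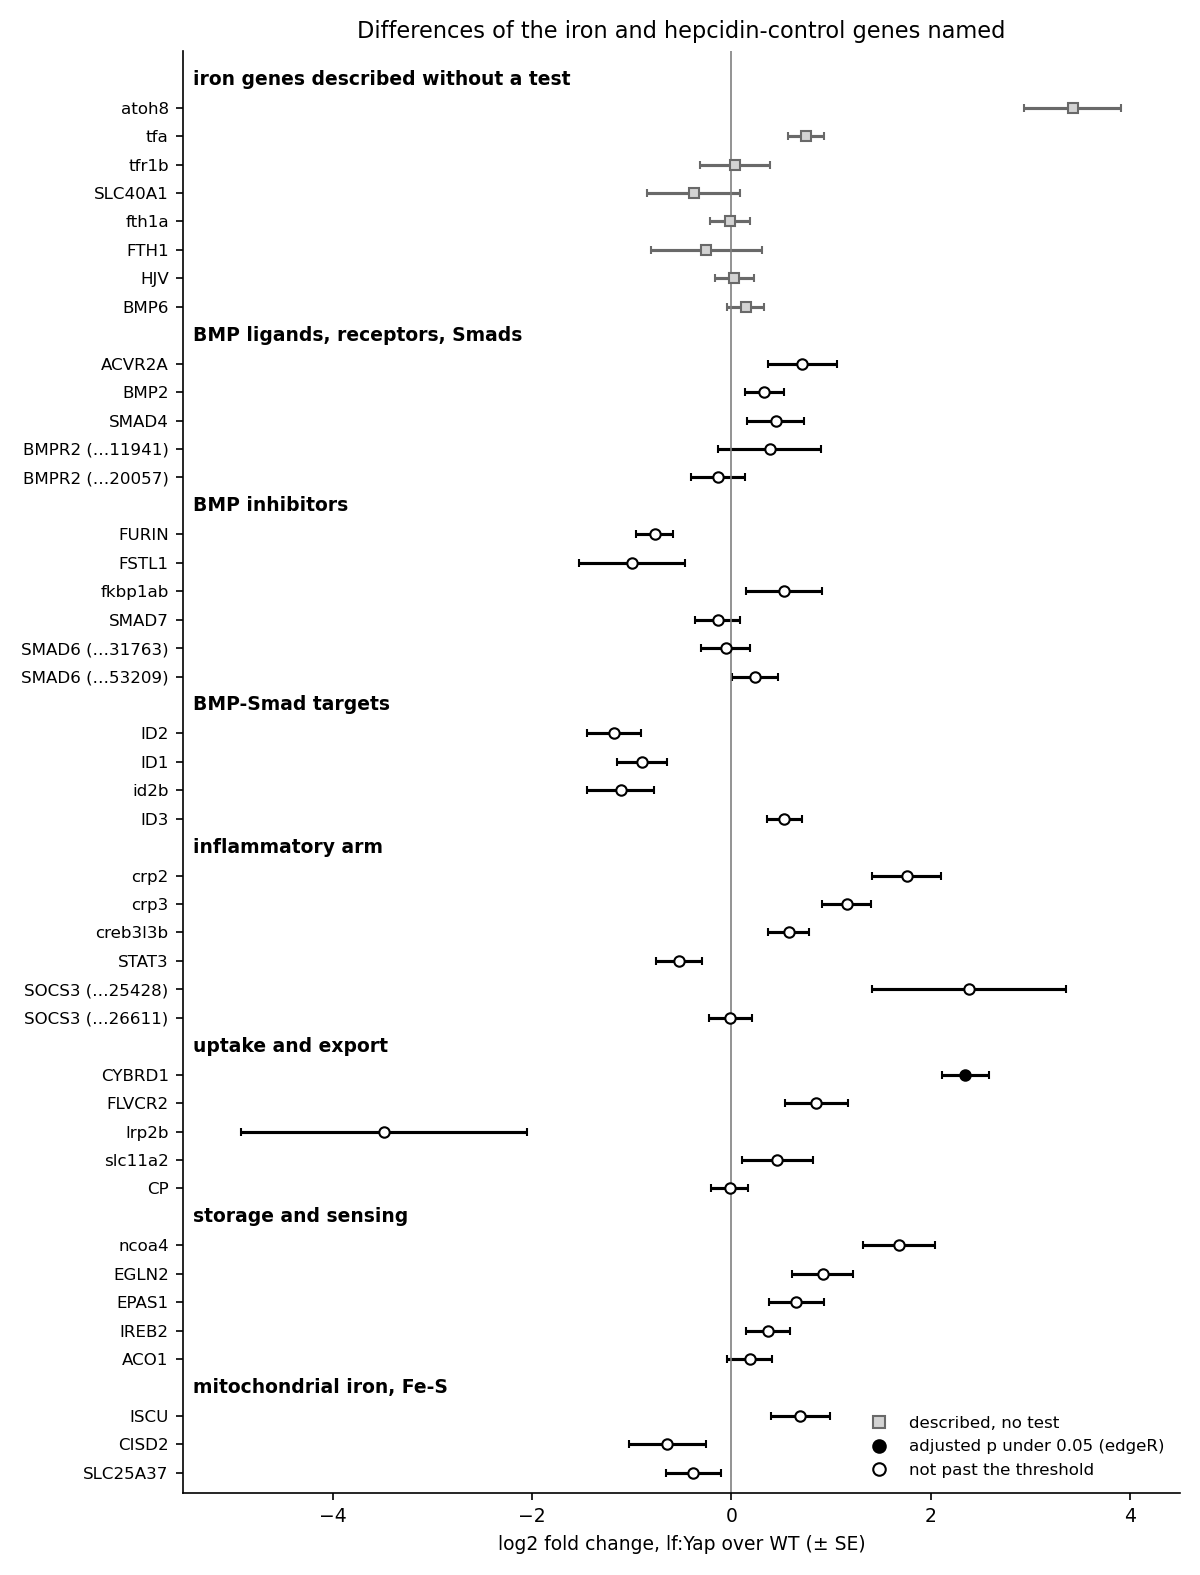
Log2 fold change (lf:Yap over WT, horizontal axis, ± SE) of the 8 iron genes (grey squares, described without a test) and of named genes from 7 lists (circles, filled where the edgeR adjusted p is under 0.05). Some further entries of the same symbol or family, and some acute phase genes, that the text gives are not drawn. CYBRD1, at 2.35, is the only filled circle; atoh8, at 3.43, lies farthest to the right.

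Among 7358 other tested genes with at least 5 CPM on average and a proper gene symbol, 5 had library profiles most like that of atoh8, by the root mean square difference of log2(CPM + 2) values over the 6 libraries after centring each gene on its mean. They were PPTC7 (ENSDARG00000011122), a mitochondrial phosphatase gene, at 0.20, MYZAP (ENSDARG00000075017) at 0.36, the claudin gene CLDN11 (ENSDARG00000020031) at 0.39, TOR3A (ENSDARG00000079308) at 0.40 and the cytokine receptor gene il23r (ENSDARG00000052158) at 0.44. PPTC7 read 748.7, 436.9 and 769.3 CPM in lf:Yap livers, against 101.0, 81.2 and 120.3 CPM in WT livers. As for atoh8, replicate 2 was its lowest lf:Yap library and replicate 3 the highest library of each group. The log2 fold changes of these 5 genes ran from 2.24 for TOR3A to 2.79 for CLDN11, below that of atoh8. The 5 were picked for likeness over these same 6 libraries, so their rise and library order follow from the choice. Adding 2 CPM shrinks the difference of a gene as low as atoh8 in WT livers. The choice therefore favours genes with smaller fold changes than that of atoh8. None of the 5 was on the lists of iron genes.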

How the data were processed

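The authors deposited unnormalized read counts per Ensembl gene. Both STAR 2.3.0e and HTSeq 0.6.0 appear in the submitters' processing notes. Their genome build, annotation and strand setting were not given in the sources used, so reads of overlapping genes cannot be told apart. Groups and replicate numbers came from the sample titles. A name table matched 17999 of 25640 IDs.

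All genes were fitted in R 4.3.3 with edgeR 4.0.16 (low counts filtered with filterByExpr on the groups, 24674 genes kept and 966 removed, TMM factors, robust quasi-likelihood, two-sided, Benjamini-Hochberg adjustment at 0.05). Standard errors were taken as |log2 fold change| over the root of F. In this fit the spread of each gene is moderated towards that of other genes. A standard error or p-value therefore does not rest on a gene's own libraries alone. DESeq2 1.42.0 and limma 3.58.1 (voom) served as alternatives. The smallest exact permutation p for 3 against 3 libraries is 0.1, and no such test was run. Replicates differed beyond sampling noise (chi-square per degree of freedom 197.1 to 354.7), so none was counted as a repeat.

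In a simulation of the lf:Yap and WT comparison (24114 genes tested) sets of 50 genes were altered 2-fold, 4-fold, 8-fold or 16-fold. The fit recovered 1 gene of the 2-fold set, 24 of the 4-fold, 44 of the 8-fold and 47 of the 16-fold set, with 11 false among 127 calls.

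The members and the gene lists were chosen with earlier results of these data known. The text names every member, each other listed gene that passed, up to 3 of lowest p per list, genes with a fixed role next to hepcidin, and the 5 most like atoh8. Beside some of these it also gives further entries of the same symbol or family, and other acute phase genes.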

Additional observations from a re-analysis of the deposited data

How the results depend on the processing

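Over all genes 164 were called (137 higher, 27 lower): 32 to 94 with 1 library left out, 17 with the replicate number as a block, 1066 by DESeq2 (679 higher, 387 lower), and 123 (93 higher, 30 lower) by library size alone, which moved the median of all genes from -0.03 to -0.17 (log2). Deviations of same-numbered libraries from their group means correlated at 0.15, 0.17 and -0.30, against -0.35 to 0.23 for differently numbered libraries. So few libraries cannot settle whether same-numbered ones are paired. Of the other iron pathway genes 1 was called, and 0 to 1 with 1 library left out, 0 with the replicate block and 7 by DESeq2. Those 7 were 4 higher (CYBRD1, crp2, crp3 and ncoa4) and 3 lower (FURIN, ID1 and ID2). With the block the adjusted p of CYBRD1 was 0.068 (edgeR), so that it was not called. The described gene atoh8 was not called with the block either. By library size alone HJV had a log2 fold change of -0.11 and BMP6 of 0.0023. With 1 library left out the ranges were 3.20 to 3.97 for atoh8, 0.67 to 0.89 for tfa, -0.42 to 0.32 for tfr1b, -0.66 to 0.02 for SLC40A1, -0.10 to 0.17 for fth1a, -0.66 to 0.40 for FTH1, -0.06 to 0.13 for HJV and 0.07 to 0.21 for BMP6. tfa was among the 1066 genes called by DESeq2, but not among those called by edgeR or limma-voom. Since atoh8 and tfa were chosen with values of this comparison known, these calls only describe them. The cause of these shifts was not tested. In the simulation 2-fold changes of randomly drawn genes were rarely recovered. Those genes differ from tfa in level and spread, so the simulation does not tell how often a difference like that of tfa would be called.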
